A study of Glycine max with 16 samples.

Results

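A set of 62 soybean genes was less abundant in field plot 4 than in each of the 3 other plots at every time of day sampled. A gene was a member if, at 8:00, 11:00, 14:00 and 17:00, its value in plot 4 was at most 0.67 times the lowest value of plots 1 to 3 at that hour, with a mean of at least 5 over those 12 libraries. Values are depth-scaled read counts (CPM), corrected for library composition by the trimmed mean of M-values (TMM). The rule kept 62 of the 20103 genes that reached that mean (0.308%). The table held 56044 genes in all. Because the level in plot 4 chose the members, that level is described here with no test. The tests concern time of day. The rule compared plots within each hour and did not compare hours. The same values entered the rule and the tests, however, so the members' course over the day is not free of the choice.

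Whole leaflets were taken from the top of the canopy of Glycine max cultivar 93B15, a commercial soybean, at the SoyFACE research farm in Illinois while the plants were in reproductive development. The 4 plots were the biological replicates, and the labels give no treatment or genotype that set any of them apart. Each plot was sampled at all 4 hours, the 3 leaflets of an uppermost leaf made 1 sample, and polyadenylated RNA was sequenced as 1 library per plot and hour, 16 in all. Each plot was sampled on a day of its own, so plot and day are 1 factor here, and a difference of plot 4 cannot be told apart from a difference of its day. In such bulk samples fewer cells of a type and less RNA per cell cannot be told apart either.

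The libraries held 14968570 to 25691784 counts. Plot 4 held the most counts of the 4 plots at 8:00, 11:00 and 14:00, with 22317152 to 25691784. At 17:00 it held 20518521, beside 21705056, 19335877 and 21297712 in plots 1 to 3. The labelled tissue was checked with the antenna gene Glyma.08G082900, which ranked 5 to 48 among all genes in the libraries of plot 4 and 4 to 27 in the others. The members together made up 0.281% to 0.496% of the counts in plot 4 and 0.919% to 2.14% in the other plots.

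Soybean leaves are known to accumulate pinitol, a methylated inositol. Its carbon skeleton is made from glucose 6-phosphate by myo-inositol-1-phosphate synthase, and inositol methyltransferase then adds the methyl group. Galactinol synthase draws on the same inositol pool for the raffinose family of sugars. In the chloroplast, chlorophyll-binding antenna proteins pass light energy to the photosystems, ferredoxin carries electrons away from photosystem I, and carbonic anhydrase interconverts CO2 and bicarbonate. Genes of each of these steps were among the members.

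Descriptions of the encoded proteins were available for 35 of the 62 members. They came from the study's gene table, used here for 931 genes that the study had singled out for a large spread among plots, so having a description is itself tied to plot spread. The other 27 members are named by locus only. On average over the 4 hours, as a geometric mean of the ratios to the mean of the other plots, the members were 2.11-fold to 30.2-fold lower in plot 4, with a median of 4.38-fold. A description was available for 31 of the 35 members over 4-fold lower and for 4 of the 27 under it. The members ranged widely in abundance. Over plots 1 to 3 their mean was 5.03 to 4749 CPM, and it was under 20 CPM for 35 of them.

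**Figure D1:**
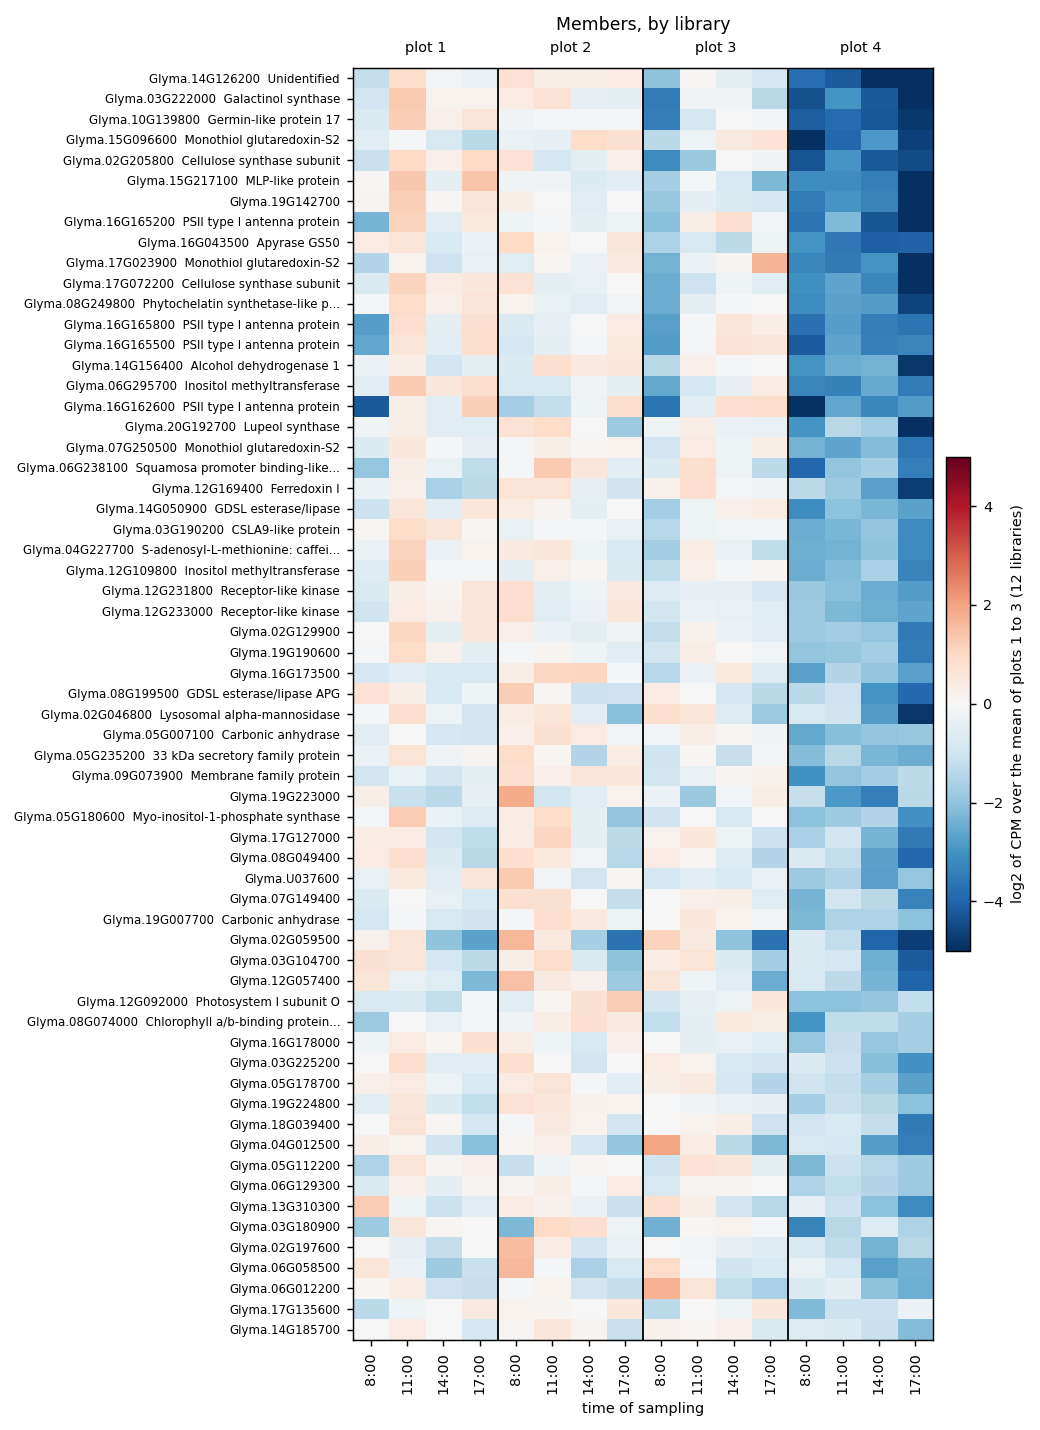
Each row is 1 of the 62 members and each column 1 of the 16 libraries, grouped by plot. The colour is log2 of the CPM over the gene's mean in the 12 libraries of plots 1 to 3, and rows run from the most to the least lowered in plot 4, from 30.2-fold to 2.11-fold. The lowest value of each row lies in 1 of the 4 columns of plot 4.

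The most abundant members encode carbonic anhydrases and enzymes of inositol metabolism. Glyma.19G007700, described as a carbonic anhydrase, was at 997, 1609, 1610.5 and 1134 CPM in plot 4 at 8:00, 11:00, 14:00 and 17:00. In the 12 libraries of the other plots it was at 2401 at the lowest, 4528 at the median and 8467 at the highest. All 4 libraries of plot 4 lay below all 12 others, and on average the gene was 3.52-fold lower. The second carbonic anhydrase gene, Glyma.05G007100, was at 573, 762, 858 and 891 CPM in plot 4 and at 1717 to 5726 CPM, median 3213, in the others. It was 4.30-fold lower, again with no overlap. In plots 1 to 3, Glyma.05G007100 was highest at 11:00 with 4433 ± 1180.0 CPM (SD, n = 3) and lowest at 17:00 with 2568 ± 737 CPM, whereas in plot 4 its highest value was the one at 17:00. Another described carbonic anhydrase gene, Glyma.06G182700, was no member. It was near the limit of detection in plots 1 to 3, with a mean of 0.533 CPM, and at 0.695 to 3.29 CPM in plot 4.

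Of the 7 genes described as acting on inositol or galactinol, a list made after values were seen, 6 had a mean of at least 5 CPM and 4 were members. Glyma.05G180600, a myo-inositol-1-phosphate synthase, was at 258, 312, 386 and 131 CPM in plot 4 over the day. The other libraries ran from 276 to 2555 CPM with a median of 925. Plot 4 was the lowest plot at each hour, by 3.89-fold on average, although its 11:00 and 14:00 values exceeded the lowest of the others, which was plot 2 at 17:00.

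The inositol methyltransferase gene Glyma.06G295700 was at 318, 302, 543 and 274 CPM in plot 4. In the others it was at 529 at the lowest, 2324 at the median and 7689.9 at the highest, and its average difference was 8.48-fold. Its level also differed among the other plots, with means over the day of 5075 CPM in plot 1, 2171 in plot 2 and 2154 in plot 3. The other inositol methyltransferase gene, Glyma.12G109800, was at 260.1, 316, 470.0 and 140.4 CPM in plot 4 and at 591 to 3243 CPM, median 1391, elsewhere. It was 5.0-fold lower with no overlap, and at 14:00 plots 1 to 3 lay close together, at 1416 ± 82.7 CPM (SD, n = 3).

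Galactinol synthase, Glyma.03G222000, was the least abundant of these members and had the second largest difference, 24.5-fold. It was at 0.717, 1.84, 0.811 and 0.0913 CPM in plot 4, the last resting on 2 counts. The other libraries ran from 1.30 to 36.9 CPM with a median of 13.0, and the lowest of them was plot 3 at 8:00. Another myo-inositol-1-phosphate synthase gene, Glyma.08G138200, was the gene closest to the rule on the outside. Its highest ratio to the lowest other plot was 0.672, and it was at 22.7, 60.9, 170 and 66.8 CPM in plot 4 against 33.8 to 949.9 CPM, median 299, elsewhere. The 2 described inositol oxygenase genes, whose enzyme breaks inositol down, were no members. Glyma.07G126600 was 3.17-fold lower on average but reached 140.1 CPM in plot 4 at 11:00, and its highest ratio was 1.06. Glyma.08G199300 did not meet the minimum mean.

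**Figure D2:**
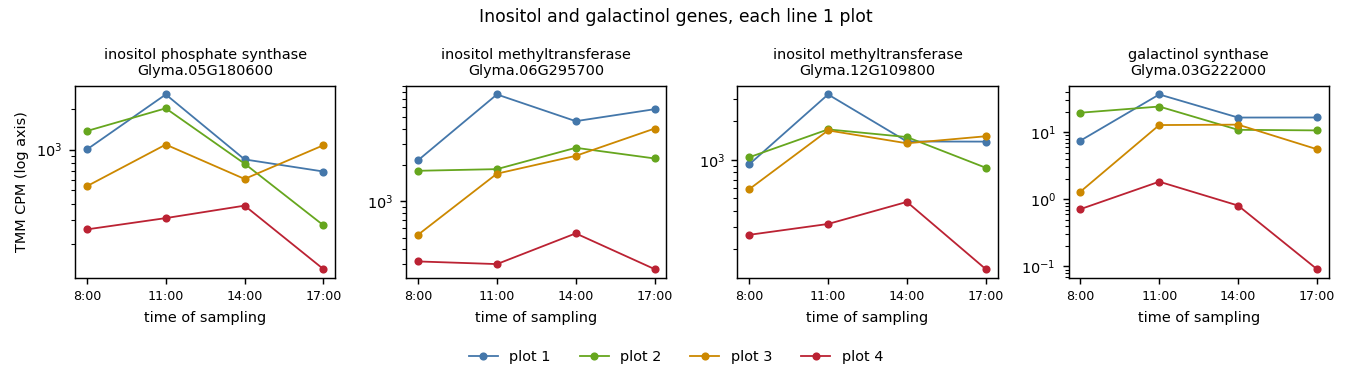
TMM CPM on a log axis against the time of sampling for the 4 members of inositol and galactinol synthesis, with 1 line for each plot and 1 point for each library. Plot 4 is the lowest line in each panel at each hour, and its 17:00 point is its lowest in all 4 panels.

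Antenna and photosystem genes gave 6 members. Of 16 described genes on this list, 14 had a mean of at least 5 CPM. On average over the 4 hours, plot 4 was below the mean of the other plots for all 14. The median was -1.68 on the log2 scale, where over all genes with a mean of at least 5 CPM it was 0.00. Other lists of described genes also lay below the other plots, with medians of -3.58 for secondary wall genes (18 of 19 below), -1.77 for wall loosening and pectin, -1.74 for flavonoid and phenylpropanoid synthesis and -1.66 for defence. Not every listed gene was lowest in plot 4 at each hour. The highest ratio to the lowest other plot was 1.44 for Glyma.10G249000 (PsaD) and 3.26 for Glyma.11G162200 (PsbA). At 17:00 they were at 2259 and 104 CPM in plot 4, beside medians of 2081 and 53.2 CPM over the other plots' libraries. Plot 4 was the lowest plot at every hour for 13 of the 16 antenna and photosystem genes. For this count, and the like counts of other lists below, the share over all genes was not counted. Since descriptions were given to genes with a large plot spread, these counts and medians describe the listed genes only. All genes with a mean of at least 5 CPM were not chosen for plot spread and are not a matched set for them.

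Of the 6, 4 are described as type I chlorophyll a/b-binding proteins of photosystem II, and they lie close together on chromosome 16. In the order of the gene table Glyma.16G165200, Glyma.16G165500 and Glyma.16G165800 are 3 loci apart, and Glyma.16G162600 is 26 loci before the first of them. Neighbouring genes with 1 description can share reads if their sequences are near-identical, so the 4 loci may not be separate measurements. Glyma.16G165800 was the most abundant of them, at 5.27, 10.4, 6.29 and 5.57 CPM in plot 4 and 10.5 to 125 CPM, median 68.3, in the others. Glyma.16G165500 was at 2.15, 6.06, 3.55 and 3.88 CPM in plot 4 and 5.48 to 70.1 CPM, median 35.6, elsewhere. The lowest of the other libraries came from 8:00 for each of these 4 genes, and they were 9.13-fold and 8.86-fold lower in plot 4 on average. Glyma.16G165200 was 13.2-fold lower, at 1.85, 4.98, 1.2 and 0.593 CPM in plot 4 against 4.59 to 49.9 CPM, median 20.6. Glyma.16G162600 was 7.41-fold lower, at 0.337, 1.73, 1.08 and 1.51 CPM against 0.568 to 24.1 CPM, median 7.89, and its lowest value in plot 4 rested on 8 counts.

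The remaining 2 act at different photosystems. Glyma.08G074000 encodes CP24, a minor antenna protein of photosystem II, and was at 23.4, 75.9, 75.3 and 57.0 CPM in plot 4. The other libraries ran from 51.1 to 317 CPM with a median of 175, so the ranges overlapped while the gene was 3.27-fold lower on average. Glyma.12G092000 encodes subunit O of photosystem I. It was at 8.09, 8.23, 8.73 and 14.4 CPM in plot 4 and at 14.4 to 82.1 CPM, median 26.9, elsewhere, a difference of 3.32-fold. A second gene for subunit O, Glyma.11G181100, was 3.13-fold lower but fell outside the rule, with a highest ratio of 0.738. The abundant antenna genes Glyma.08G082900 and Glyma.05G128000 were 1.81-fold and 2.05-fold lower on average. Both fell outside the rule, with highest ratios of 0.939 and 0.828.

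Ferredoxin I, Glyma.12G169400, was also a member. It was at 38.4, 26.6, 14.2 and 3.51 CPM in plot 4 over the day and at 30.5 to 166 CPM, median 87.2, in the others. In plot 4 each value was lower than the one before it. The same held for other members, among them Glyma.02G046800 and Glyma.03G104700. Ferredoxin I was 2.94-fold lower than the other plots at 8:00 and 15.9-fold lower at 17:00. That was the hour of the smallest ratio for 43 of the 62 members.

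**Figure D3:**
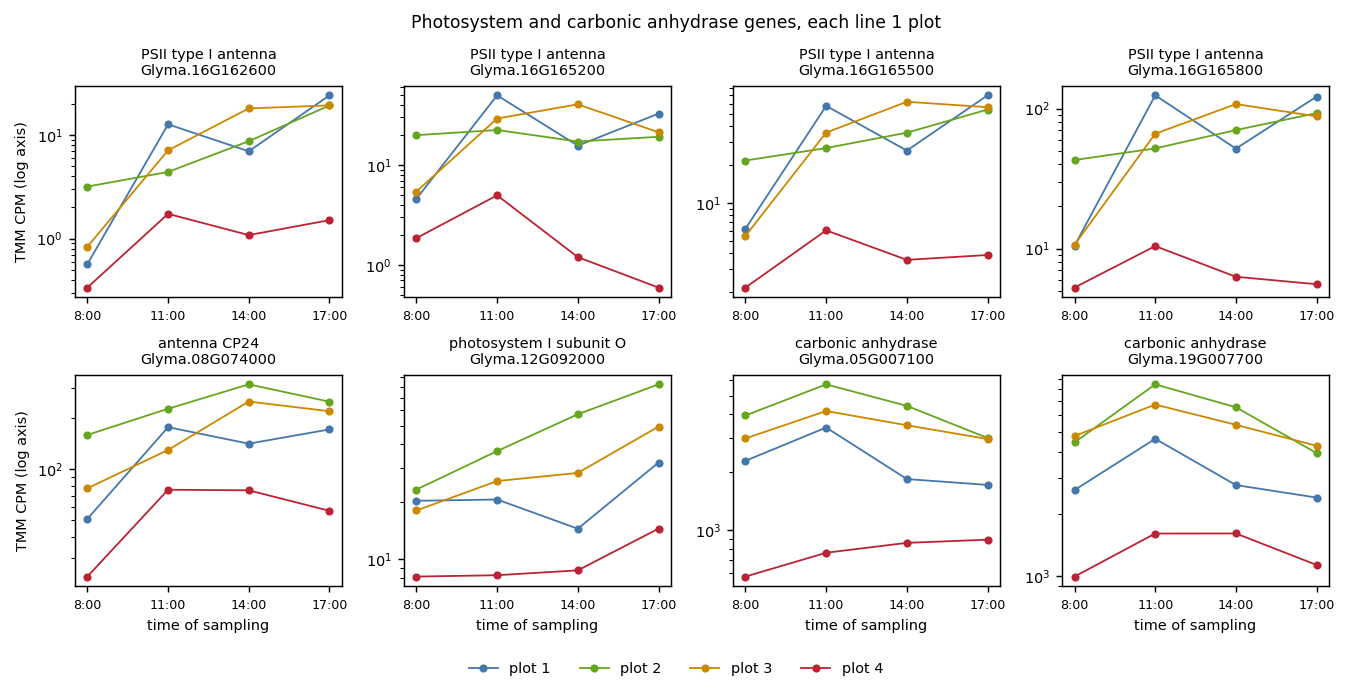
TMM CPM on a log axis against the time of sampling for 6 antenna and photosystem members and the 2 carbonic anhydrase members, with 1 line for each plot. The 4 genes on chromosome 16 start low at 8:00 in plots 1 and 3 and stay low all day in plot 4, and in both carbonic anhydrase panels the highest point of plot 4 lies below the lowest point of the other plots.

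Glutaredoxins, small proteins that use glutathione to exchange thiol groups, gave 3 members, all described as monothiol glutaredoxin S2. Of the 5 genes described as monothiol glutaredoxins, a list made after values were seen, plot 4 was the lowest at every hour in all 5. Glyma.15G096600 was at 0.295, 0.686, 1.43 and 0.411 CPM in plot 4 and at 4.09 to 19.8 CPM, median 8.60, in the others, 17.2-fold lower. Glyma.17G023900 was at 1.10, 0.902, 1.31 and 0.320 CPM against 2.04 to 33.7 CPM, median 8.38, and was 11.3-fold lower. Neither gene overlapped between plot 4 and the others. Glyma.07G250500, the most abundant of the 3, was at 4.26, 3.54, 4.90 and 1.78 CPM against 11.3 to 31.8 CPM, median 22, a difference of 6.32-fold without overlap. Of the 2 that were no members, Glyma.13G216300 was 5.87-fold lower with a highest ratio of 0.709, and Glyma.13G216200 had a mean of 0.897 CPM.

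Cell wall genes were mostly at low counts. The cellulose synthase catalytic subunit gene Glyma.02G205800 was at 0.253, 0.650, 0.270 and 0.228 CPM in plot 4 and at 0.574 to 10.1 CPM, median 4.68, in the others. It was 15.5-fold lower, on at least 5 counts in each library of plot 4. A second such gene, Glyma.17G072200, was at 0.885, 1.19, 0.772 and 0.228 CPM against 1.36 to 16.4 CPM, median 6.19, and was 11.3-fold lower without overlap. Both were lower in plot 3, with means of 2.83 and 4.17 CPM, than in plot 1, with 7.09 and 10.5 CPM. They were the only 2 members on the list of secondary wall genes, where 19 of 61 described genes reached a mean of 5 CPM and plot 4 was the lowest at every hour for 16 of the 61. A further 2 members have descriptions of wall synthesis outside that list: Glyma.03G190200, a CSLA9-like protein of the family that makes mannans, was 5.48-fold lower, and Glyma.04G227700, a caffeic acid methyltransferase of lignin synthesis, was 5.33-fold lower.

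The largest difference belonged to Glyma.14G126200, whose description is "Unidentified". It was at 0.506, 0.397, 0.154 and 0.0913 CPM in plot 4 and at 1.77 to 13.0 CPM, median 6.94, in the others. The ranges did not overlap, but the 17:00 value rested on 2 counts, so the average of 30.2-fold is imprecise. Glyma.10G139800, a germin-like protein of the cell wall cupin family, was 18.1-fold lower, at 0.183 to 0.361 CPM against 0.470 to 12.2 CPM. Glyma.15G217100, a protein of the major latex protein-like family and the only member on the defence list, was at 4.13, 4.11, 3.36 and 0.593 CPM in plot 4 and 7.49 to 92.6 CPM, median 28.2, elsewhere. It was 14.0-fold lower without overlap.

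Several enzymes stood singly. Glyma.16G043500, an apyrase, which splits phosphates from nucleotides, was 12.4-fold lower, at 0.965 to 2.07 CPM against 5.43 to 32.7 CPM. Alcohol dehydrogenase 1, Glyma.14G156400, which reduces acetaldehyde in fermentation, was 8.64-fold lower. Lupeol synthase, Glyma.20G192700, which makes a triterpene, was 6.62-fold lower, and its values in plot 4 of 2.91, 8.66, 6.87 and 0.593 CPM overlapped those of the others at 6.37 to 42.8 CPM. The GDSL esterase/lipase gene Glyma.14G050900 was 5.61-fold lower at 4.81 to 9.89 CPM against 12.7 to 63.2 CPM, and a second one, Glyma.08G199500, was 4.40-fold lower at 2.42 to 17.6 CPM against 14.3 to 84.6 CPM. Glyma.02G046800, a lysosomal alpha-mannosidase, which removes mannose from glycoproteins, was 4.36-fold lower and in plot 4 was at 4.72 CPM at 8:00 and 0.274 CPM at 17:00. Of the described members without a role given here, the membrane family gene Glyma.09G073900 was 4.01-fold lower, at 13.7, 28.1, 33.0 and 45.3 CPM against 57.0 to 191 CPM, median 106. The phytochelatin synthetase-like gene Glyma.08G249800 was 9.75-fold lower, and the 33 kDa secretory family gene Glyma.05G235200 was 4.04-fold lower.

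The described regulators among the members were few. Glyma.06G238100, a squamosa promoter binding-like protein and the only member on the transcription factor list, was at 0.548, 2.09, 2.55 and 0.776 CPM in plot 4 and at 2.17 to 20.4 CPM, median 6.73, in the others, 5.92-fold lower with overlap. The receptor-like serine/threonine kinase genes Glyma.12G231800 and Glyma.12G233000 lie 12 loci apart. The first was at 8.39, 7.04, 5.48 and 4.38 CPM in plot 4 against 17.0 to 54.0 CPM, median 24.5, and the second at 14.3, 10.7, 9.27 and 8.26 CPM against 25.9 to 90 CPM, median 41.6. Both decreased from hour to hour in plot 4 and were 4.91-fold and 4.87-fold lower, and a shared sequence could let them share reads. Other members close together in gene order were Glyma.05G178700 and Glyma.05G180600, 19 loci apart, Glyma.19G223000 and Glyma.19G224800, 18 apart, and Glyma.03G222000 and Glyma.03G225200, 32 apart. Chromosome 16 held 7 members and chromosome 12 held 6. Of the 18 lists of described genes compared, 7 held at least 1 member and 11 held none. Holding no member did not mean that a list was level in plot 4. Among listed genes with a mean of at least 5 CPM, plot 4 was compared with the mean of the others on average over the 4 hours. It was below for 15 of 15 wall loosening and pectin genes (median log2 ratio -1.77) and 5 of 5 iron genes (-1.63). Plot 4 was also below for 9 of 11 nitrogen and stored protein genes (-0.83) and 3 of 4 phosphate supply genes (-0.99). For heat and stress proteins it was below for 1 of 4, with a median of 1.00.

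Among the members without a description, Glyma.14G185700 was the most abundant. It was also the least lowered of all members, at 79.6, 78.5, 57.3 and 27.8 CPM in plot 4 and 58.3 to 186 CPM, median 132, in the others. It was 2.11-fold lower, and its values overlapped. Glyma.03G180900 was at 10.7, 41.2, 69.3 and 37.6 CPM in plot 4 against 20.6 to 214 CPM, median 112, and was 2.67-fold lower. Just inside the rule were Glyma.06G012200, Glyma.06G058500 and Glyma.02G129900, with highest ratios of 0.669, 0.669 and 0.661. Just outside, beside Glyma.08G138200, were Glyma.15G172600 and Glyma.09G241800, each at 0.673. The other loci without a description were 2.15-fold lower (Glyma.17G135600) to 4.64-fold lower (Glyma.19G190600), apart from Glyma.19G142700, which was 13.9-fold lower at 0.228 to 1.41 CPM against 2.87 to 24.8 CPM.

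All 4 libraries of plot 4 were below all 12 others for 27 members, and the same held for 82 of the 20103 genes with a mean of at least 5 CPM (0.408%). The depth of the difference was not even over the day. The median ratio of plot 4 to the mean of the other plots was 0.252 at 8:00, 0.254 at 11:00, 0.257 at 14:00 and 0.162 at 17:00, where over all genes kept it was 0.995, 0.997, 0.991 and 0.975. The ratio was smallest at 17:00 for 43 members. The 17:00 library of plot 4 held the lowest of the 16 values for 42 members, and 1 library gives no error of its own. In that library 23 members had fewer than 20 counts, and 11 members had fewer than 8 counts somewhere in plot 4.

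Against the lowest of the other plots, which is what the rule read, the median ratio was 0.485 at 8:00, 0.329 at 11:00, 0.346 at 14:00 and 0.217 at 17:00. The 8:00 ratio was the largest of the 4 for 38 members. At that hour the lowest of plots 1 to 3 was plot 3 for 33 members, plot 1 for 24 and plot 2 for 5, and plot 2 was the highest for 47. At 11:00 plot 1 was the highest for 36. Over the day the highest mean was in plot 2 for 33 members, in plot 1 for 21 and in plot 3 for 8. The number of members depended on which libraries the rule read. Without plot 3 the rule would take 252 genes, 61 of the 62 among them, without plot 1 it would take 112, and without the 8:00 libraries 245.

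**Figure D4:**
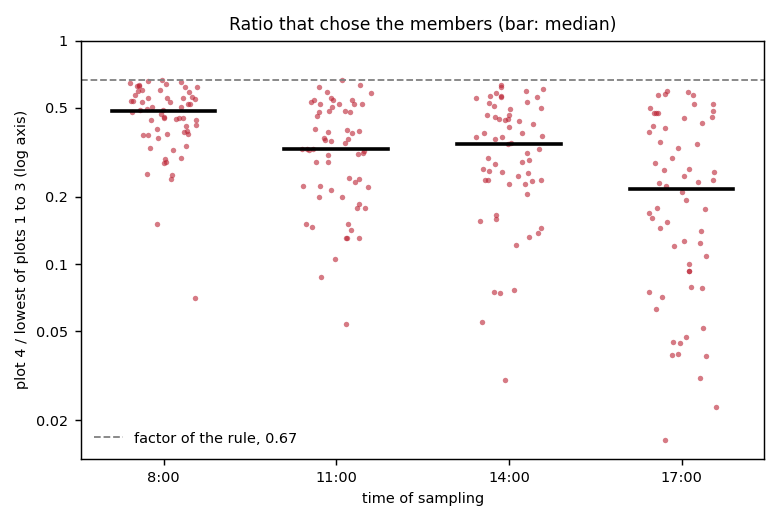
Each point is 1 member, and the vertical axis (log scale) is its CPM in plot 4 divided by the lowest of plots 1 to 3 at that hour. Bars are medians, from 0.485 at 8:00 to 0.217 at 17:00, and the dashed line is the factor of 0.67 that all members met.

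Time of day was tested over all 16 libraries with plot as a block. Over the 36059 genes kept, those called had a Benjamini-Hochberg adjusted p under 0.05 and moved by 1 or more on the log2 scale. Between time points 32 of 62 members (51.6%) were called, compared with 33.8% of the genes kept and 32.7% of those with a mean of at least 5 CPM. From 8:00 to 17:00, 9 members rose (14.5%) and 16 fell (25.8%), with 15.6% and 13.1% of the genes kept, and 12.4% and 14.4% of those with a mean of at least 5 CPM. Glyma.06G295700 and Glyma.17G023900 were among the 9 rises but not among the 32 called between time points. Their adjusted p over all time points was 0.111 and 0.127 (edgeR's quasi-likelihood test). From 8:00 to 11:00, 10 members rose (16.1%) and 2 fell (3.23%), where 5.46% and 3.87% of the genes kept did, and 5.57% and 3.61% of those with the higher mean. From 8:00 to 14:00, 8 rose (12.9%) and 14 fell (22.6%), with 12.2% and 10.4% of the genes kept, and 10.3% each of those with the higher mean. The median log2 change of the members from 8:00 was 0.51 at 11:00, 0.14 at 14:00 and -0.05 at 17:00, and over all genes kept it was -0.01, 0.01 and 0.06. In plots 1 to 3 the members' highest mean was at 11:00 for 32, at 17:00 for 14, at 8:00 for 13 and at 14:00 for 3.

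Of the 9 rises to 17:00, 5 were antenna or photosystem genes. From 8:00 to 17:00, 7 of the 16 described antenna and photosystem genes were called as rises and 0 as falls (edgeR's quasi-likelihood test), and 5 of the 7 were members. Over the genes kept the shares were 15.6% and 13.1%. Under the fold threshold, Glyma.13G282000 fell by 0.63 (adjusted p = 0.0147, edgeR), while Glyma.05G128000 rose by 0.83 (0.00119) and Glyma.11G181100 by 0.47 (0.0357). The PsaK gene Glyma.09G087700, not on the list, was lower at 17:00 than at 8:00 in every plot, in plot 4 at 48.1 against 133 CPM. The median log2 change of the 16 listed genes was 0.86, beside 0.06 over all genes kept. Glyma.16G162600 rose most, by 3.54 ± 0.55 on the log2 scale (SE, adjusted p = 9.41e-05, edgeR), and in plot 4 it rose 4.47-fold from its low start. Glyma.16G165500 rose by 2.17 ± 0.47 (adjusted p = 0.00142, edgeR), which was 11.2-fold in plot 1, 2.52-fold in plot 2, 10.3-fold in plot 3 and 1.8-fold in plot 4. Glyma.16G165800 rose by 1.79 ± 0.52 (adjusted p = 0.00981, edgeR), but in plot 4 it was 1.06 times its 8:00 value. Without plot 1 it was 1.29 (adjusted p = 0.0581) and without plot 3 it was 1.39 (adjusted p = 0.0598), both still over the fold threshold. Glyma.16G165200 changed by 0.89 ± 0.58 at 17:00 (adjusted p = 0.221, edgeR) and was called only from 8:00 to 11:00, at 1.72 ± 0.58 (adjusted p = 0.0462).

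CP24 and subunit O rose in every plot. Glyma.08G074000 rose by 1.28 ± 0.22 on the log2 scale (adjusted p = 0.000231, edgeR), from 1.57-fold in plot 2 to 3.37-fold in plot 1, with 2.44-fold in plot 4. Glyma.12G092000 rose by 1.17 ± 0.21 (adjusted p = 0.000315, edgeR), between 1.59-fold in plot 1 and 3.55-fold in plot 2, with 1.78-fold in plot 4. For these genes plot 4 was lower at each hour and rose alongside the others. The locus without a description Glyma.03G180900 rose in each plot as well, by 1.98 ± 0.22 (adjusted p = 3.8e-06, edgeR), and by 2.51 ± 0.22 already at 11:00.

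Inositol genes moved less uniformly. Glyma.06G295700 rose by 1.08 ± 0.41 on the log2 scale (adjusted p = 0.0381, edgeR), yet in plot 4 it was 0.864 times its 8:00 value at 17:00, and the change was 0.98 without plot 1 (adjusted p = 0.11) and 0.41 without plot 3 (adjusted p = 0.39). Glyma.12G109800 and Glyma.03G222000 were called at 11:00, at 1.07 ± 0.32 (adjusted p = 0.0249) and 1.54 ± 0.51 (adjusted p = 0.0399), and at 17:00 their changes were 0.23 ± 0.32 and 0.16 ± 0.51. The myo-inositol-1-phosphate synthase member Glyma.05G180600 changed by -0.57 ± 0.44 (adjusted p = 0.297, edgeR). Its 17:00 value was 2.01 times that of 8:00 in plot 3 and 0.201 times in plot 2, so the plots went opposite ways. Glyma.08G138200, the one just outside the rule, rose by 2.85 ± 0.57 (adjusted p = 0.000765, edgeR). The inositol oxygenase gene Glyma.07G126600, no member, fell by 4.11 ± 0.49 (adjusted p = 7.73e-06, edgeR). Among the glutaredoxins Glyma.17G023900 rose by 1.54 ± 0.55 (adjusted p = 0.0309, edgeR). Like Glyma.06G295700, it was not called between time points. The gene rose 16.5-fold in plot 3, while in plot 4 it was at 0.291 times its 8:00 value, and its change was 0.50 without plot 3 (adjusted p = 0.393). The change was 1.67 without plot 1 (adjusted p = 0.0721), 1.77 without plot 2 (0.0685), 2.02 without plot 4 (0.00722) and 1.25 by DESeq2 (0.0974).

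The carbonic anhydrase genes showed little net change over the day. Glyma.19G007700 changed by -0.07 ± 0.17 from 8:00 to 17:00 (adjusted p = 0.77, edgeR) and Glyma.05G007100 by -0.03 ± 0.21 (adjusted p = 0.918). At 11:00 Glyma.19G007700 was higher by 0.74 ± 0.17 (adjusted p = 0.00557), under the fold threshold.

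Of the 16 falling members 3 had a description. Ferredoxin I, Glyma.12G169400, fell by 1.53 ± 0.34 on the log2 scale (adjusted p = 0.0017, edgeR), and its 17:00 level was 0.763 times that of 8:00 in plot 3 and 0.0916 times in plot 4. The alpha-mannosidase gene Glyma.02G046800 fell by 2.30 ± 0.32 (adjusted p = 3.54e-05, edgeR) and the GDSL esterase/lipase gene Glyma.08G199500 by 1.78 ± 0.28 (adjusted p = 0.000119, edgeR), both in all 4 plots. The largest falls were those of Glyma.02G059500, by 4.28 ± 0.31 (adjusted p = 5.5e-08, edgeR), Glyma.12G057400, by 3.09 ± 0.15 (adjusted p = 1.39e-09), and Glyma.04G012500, by 2.94 ± 0.33 (adjusted p = 4.83e-06). Glyma.12G057400 was even over plots, at 0.142, 0.103, 0.116 and 0.107 times its 8:00 level at 17:00 in plots 1 to 4. Glyma.03G104700 fell by 2.39 ± 0.20 (adjusted p = 2.77e-07, edgeR). The squamosa promoter binding-like gene Glyma.06G238100 was called with a rise to 11:00 of 1.67 ± 0.25 (adjusted p = 0.000287) and was back at -0.11 ± 0.26 by 17:00.

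Plot by plot, 17:00 was higher than 8:00 in each of plots 1 to 3 for 13 members, lower in each for 22, and mixed for 27. Plot 4 went down for 47 members and up for 15. Of the 13 that rose in plots 1 to 3, 5 were lower at 17:00 than at 8:00 in plot 4, and of the 22 that fell, 2 were higher. All 4 plots went down for 20 members and up for 8. These counts were not made over all genes, and each value compared is 1 library. Whether the change over the day differed between plot 4 and the others was not tested, because the values of plot 4 at each hour entered the rule.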

How the data were processed

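The authors prepared TruSeq libraries from total RNA, sequenced them on 2 lanes assigned at random (the lane of each library is not stated), trimmed the reads with Trimmomatic, aligned them with TopHat to the Williams 82 soybean assembly and counted reads per gene with HTSeq-count. CASAVA 1.8.2 is also listed in the submitters' processing notes. Per the file headers the deposited table has 1 column of raw counts for each library, and 0 columns were left unmatched. No source used here states whether counting used strand.

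Genes with at least 8 counts in any library were kept, 36059 of 56044. Counts were scaled by TMM and tested with edgeR 4.0.16 in R 4.3.3 (quasi-likelihood test, time point with plot as a block, Benjamini-Hochberg adjustment), with DESeq2 1.42.0 as an alternative. Standard errors were back-calculated as the log2 fold change over the square root of F and are approximate. The fit was tested on simulated data. Plots pair the libraries by design, since the labels give replicate numbers and the study's methods state that each replicate was 1 plot. Deviations from the hour means correlated at a median r of 0.359 over 24 pairs of 1 plot and -0.143 over 96 pairs of different plots. Taking out the hour means itself pushes libraries of different plots towards negative r, so the negative median is partly built in. With plot as a block, differences in level among the 4 plots are removed. The p-values rest on the variation left between libraries after hour and plot are fitted.

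The members, and the lists of described genes, were chosen with earlier results of these data known. Named members were the 10 most abundant, the 10 lowest ratios, the 5 largest called rises and falls, the 3 on each side of the factor of 0.67, and those on a list. Other described members were named after their values were seen. The study's own fold changes and p-values were not used.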

Additional observations from a re-analysis of the deposited data

Results flagged for a closer look

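In each group of 4 libraries of 1 hour, a library was looked at again when its gap to the nearest other value exceeded Dixon's critical share of the group's range, which chance gives in about 1 in 20 groups. Of 148 groups, from 37 named members at 4 hours, 5 met this. Glyma.16G165800, the antenna gene on chromosome 16, was at 43.0 CPM in plot 2 at 8:00 and at 5.27 to 10.6 CPM in the other 3 libraries of that hour. Glyma.06G012200, which has no description, was at 53.4 CPM in plot 3 at 8:00 and at 10.0 to 17.2 CPM in the others. In the remaining 3 groups plot 4 was set apart as the lowest, which the rule favours: the inositol methyltransferase gene Glyma.12G109800 at 14:00, Glyma.03G104700 at 14:00 and the glutaredoxin gene Glyma.07G250500 at 11:00.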

How the results depend on the processing

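The number of members depended on the rule's own settings. It was 145 with a factor of 0.8, 21 with 0.5, 136 with a minimum mean of 1 CPM and 27 with 20 CPM. Leaving out 1 of plots 1 to 3 gave 78 to 252, and leaving out 8:00, an alternative chosen after seeing the data, gave 245. Leaving out another hour gave 77 each. DESeq2 size factors gave 64 members, library totals alone 47 and no count filter 60. The median log2 ratio of -2.13 became -2.21 to -2.02 without 1 of plots 1 to 3. Without plot 4 the rule could not be applied. Of the 62 members, the number called between time points was 28 to 36 without 1 plot, 31 with DESeq2's test and 36 with no fold threshold. Rises to 17:00 numbered 7 to 11 and falls 13 to 19 without 1 plot. With no replicate block, 13 members were called between time points, 4 rose and 13 fell, so the block matters to these counts. The rule chose genes with a difference among plots, which adds to the residual variation when the block is left out. The share over all genes was not counted for this setting.

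Changes that turned sign were all uncalled ones near 0. With DESeq2's test Glyma.14G126200 was at -0.092, Glyma.03G222000 at -0.12 and Glyma.19G142700 at -0.057. With no replicate block Glyma.15G217100 was at 0.58 and Glyma.02G129900 at 0.10. Without 1 plot, Glyma.05G007100 ran from -0.27 to 0.10, Glyma.14G126200 ran from -0.28 to 0.44, Glyma.03G222000 ran from -0.33 to 0.91, Glyma.19G142700 ran from -0.27 to 0.27, Glyma.16G043500 ran from -0.73 to 0.0043, Glyma.17G072200 ran from -0.30 to 0.88, Glyma.02G129900 ran from -0.38 to 0.17, Glyma.06G238100 ran from -0.35 to 0.034, Glyma.12G109800 ran from -0.25 to 0.57, Glyma.07G250500 ran from -0.19 to 0.60 and Glyma.15G217100 ran from -0.94 to 0.28. Of these, Glyma.16G043500 without plot 3 (-0.73, adjusted p = 0.0304, edgeR) and Glyma.07G250500 without plot 4 (0.60, adjusted p = 0.0412, edgeR) stayed under the fold threshold. Causes were not tested. Genes under 1 CPM in plot 4 rest on few counts, and their folds are imprecise.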
